A study of Mus musculus with 6 samples.

Results

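The natriuretic peptide system was examined in heart ventricles of dystrophic mice with and without finerenone, a non-steroidal antagonist of the mineralocorticoid receptor. It was taken as 9 genes: the peptides Nppa, Nppb and Nppc, the receptors Npr1, Npr2 and Npr3, the activating proteases Corin and Furin, and the degrading protease Mme. A gene was included where the array's annotation gave a transcript cluster that symbol and no other. All 9 were found, with 1 transcript cluster each, among 30142 named genes.

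Each of the 6 arrays held RNA from the ventricles of 1 male mouse on the C57BL/10 background, all aged 20 weeks. All mice were "Het": they lacked dystrophin (mdx) and carried a wild-type utrophin allele beside a null allele (utrn+/-). From 4 weeks of age, at weaning, 3 mice ate rodent chow with finerenone at 100 ppm, and the 3 untreated mice ate that chow without the drug. Both groups were thus dystrophic, wild-type hearts were not analysed here, and the comparison addresses which transcripts of this system differed with the drug. Values are log2 signals, so a difference of 1 is a doubling.

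Cardiac muscle makes atrial natriuretic peptide (ANP, from Nppa) and B-type natriuretic peptide (BNP, from Nppb) and raises both under stretch and pressure. C-type natriuretic peptide (CNP, from Nppc) is made mainly by endothelium. The peptides bind guanylyl cyclase receptors, and the cyclic GMP formed in the cell relaxes vessels, promotes sodium loss and restrains growth and fibrosis. A receptor without a cyclase domain and the protease neprilysin remove the peptides, and proteases of the cell surface and the Golgi cut the prohormones to their active forms.

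Over all genes, limma called 0 of 30142 genes at an adjusted p below 0.05 (0%), and 7.81% had an unadjusted p below 0.05. Of the 9 natriuretic genes, 0 passed the adjusted threshold and 0 had an unadjusted p below 0.05, with adjusted p from 0.668 to 0.953 in limma. The 6 arrays correlated between 0.989 and 0.994, and untreated replicate 1 had the lowest mean correlation with the others (0.9904). Of the 8 markers of ventricular muscle, Tnnt2 (cardiac troponin T) was at 19.92 to 19.93, close to the highest value in the table, Myl2 (ventricular myosin light chain) was at 11.94 to 12.66, and the lowest was Irx4, a ventricular transcription factor, at 6.06 to 6.73. Negative control probe sets, a measure of background, had medians from 5.04 to 5.33.

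Nppa and Nppb lie next to each other on chromosome 4, and their upstream sequences are shown because these were the most variable members between hearts. The 250 bases before the RefSeq transcript start (GRCm38.p6) are given 5′ to 3′ on the plus strand, Nppa from chr4:148000472-148000721 and Nppb from chr4:147985650-147985899, with matches to the searched motifs in capitals.
Nppa: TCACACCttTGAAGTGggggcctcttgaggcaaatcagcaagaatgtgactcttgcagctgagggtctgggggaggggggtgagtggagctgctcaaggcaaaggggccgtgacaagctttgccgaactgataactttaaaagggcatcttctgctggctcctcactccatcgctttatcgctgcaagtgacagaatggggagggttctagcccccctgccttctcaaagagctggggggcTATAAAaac
Nppb: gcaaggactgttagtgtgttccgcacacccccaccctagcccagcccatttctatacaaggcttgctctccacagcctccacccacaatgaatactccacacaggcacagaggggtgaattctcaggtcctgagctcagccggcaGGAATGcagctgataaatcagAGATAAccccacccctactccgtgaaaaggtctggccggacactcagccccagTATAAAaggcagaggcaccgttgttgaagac

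In the Nppa window the capitals mark a T-box site (TCACACC), an element for the factor Nkx2-5 (TNAAGTG) and a TATA box (TATAAA). In the Nppb window they mark, first, the muscle element of TEAD factors, read on the minus strand (CATTCC). The Nppb window also held an element for GATA factors (AGATAA) and the same TATA box. Among 32851 RefSeq promoter windows of this length, the T-box site was in 3.33%, the Nkx2-5 element in 10.1%, the TEAD element in 12.6%, the element for GATA factors in 9.99% and the TATA box in 7.59%. Both strands were searched except for the TATA box, and no motif matches overlapped in these windows. The core of steroid receptor sites (AGAACA, in 16.1% of windows), the E-box CACGTG (6.02%), the cyclic AMP element TGACGTCA (1.55%) and the CArG box (1.47%) had no match in either window. Only these exact strings were searched, so a site that departs from them was not marked. TGATAA, which differs from the searched GATA string in its first base, stands unmarked in both windows. These are matches of letters, not measured binding.

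Nppa, which encodes ANP, had log2 signals of 19.09, 19.59 and 18.70 in finerenone replicates 1 to 3 and of 17.85, 19.22 and 18.95 in untreated replicates 1 to 3. Untreated replicate 1 was the lowest heart and finerenone replicate 2 the highest, and the groups overlapped. The means were 19.13 ± 0.45 with finerenone and 18.67 ± 0.73 without (SD, n = 3 each), a log2 difference of 0.45 ± 0.40 (SE) with a 95% interval from -0.50 to 1.40. Without untreated replicate 1 the difference was 0.04. The highest Nppa value was 0.34 below the top of the scale (19.93), which leaves little room to record an increase.

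Since Nppa is abundant in atria, markers of atrial muscle were set beside it. Sln (sarcolipin) measured 4.49 to 5.19 and Bmp10, a growth factor of the right atrium, 3.12 to 3.59, near or below the median of the negative controls. Myl7 (atrial light chain) measured 4.72 to 5.93. Its highest value was in finerenone replicate 2, where the control median was 5.04 and Nppa was also highest. Stard10 (8.52 to 9.33) and Kcnj3 (10.28 to 11.27) of the same list were well above the control median, and Gja5 (5.73 to 6.42) was above it by less. Over the 8 atrial genes, 5 were higher and 3 lower with finerenone, and the median difference was 0.07. The summed signal ran from 11.0 to 11.5 with the drug and from 11.1 to 11.6 without. That sum was taken before the log and is made up mostly of Kcnj3 and Stard10, so it says little about the dimmer atrial genes. Nppa and Myl7 correlated with r = 0.55 over the 6 arrays (exact permutation p = 0.203, adjusted 0.304 over 3 pairs; rho = 0.77, exact p = 0.103, adjusted 0.297), and r was 0.79 without finerenone replicate 2 and untreated replicate 1.

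Nppb, which encodes BNP, spread more widely, with 16.78, 15.36 and 13.84 in the finerenone hearts and 15.34, 17.16 and 15.94 in the untreated hearts, in replicate order. Finerenone replicate 3 was the lowest heart and untreated replicate 2 the highest, 3.31 log2 units apart, and the groups overlapped. Its SD over the 6 arrays was larger than that of 99.9% of the 11356 genes with a mean signal of at least 6, and Nppa's was larger than that of 98.1% of them. The means were 15.33 ± 1.47 and 16.15 ± 0.92 (SD, n = 3 each), a difference of -0.82 ± 0.79 (SE) with a 95% interval from -2.73 to 1.09. That interval spans folds from 0.151 to 2.13. Without finerenone replicate 3 the difference was -0.08 and without finerenone replicate 1 it was -1.55.

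The signs of the Nppa and Nppb differences were opposite, but this contrast did not hold up against the spread. Within arrays, Nppa minus Nppb was 2.31, 4.24 and 4.86 with finerenone and 2.51, 2.07 and 3.01 without, a difference of 1.27 between the means (two-sided exact permutation p = 0.30). In finerenone replicate 1 this value lay inside the untreated range, and in the other 2 treated hearts it lay above it. Over the 6 arrays Nppa and Nppb correlated with r = 0.34 (exact permutation p = 0.503, adjusted 0.503 over 3 pairs; rho = 0.60, exact p = 0.242, adjusted 0.297). Without finerenone replicate 2 and untreated replicate 1, r was 0.98 over the 4 arrays left, so the value rests on those hearts.

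Nppc, which encodes CNP, was not distinguishable from background. Its signal was 3.96, 4.11 and 3.96 with finerenone and 4.22, 3.97 and 4.13 without, and 72.5% to 79.2% of the negative controls measured as high or higher. The difference of -0.09 ± 0.10 (SE) is therefore not a measure of CNP transcript.

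**Figure D1:**
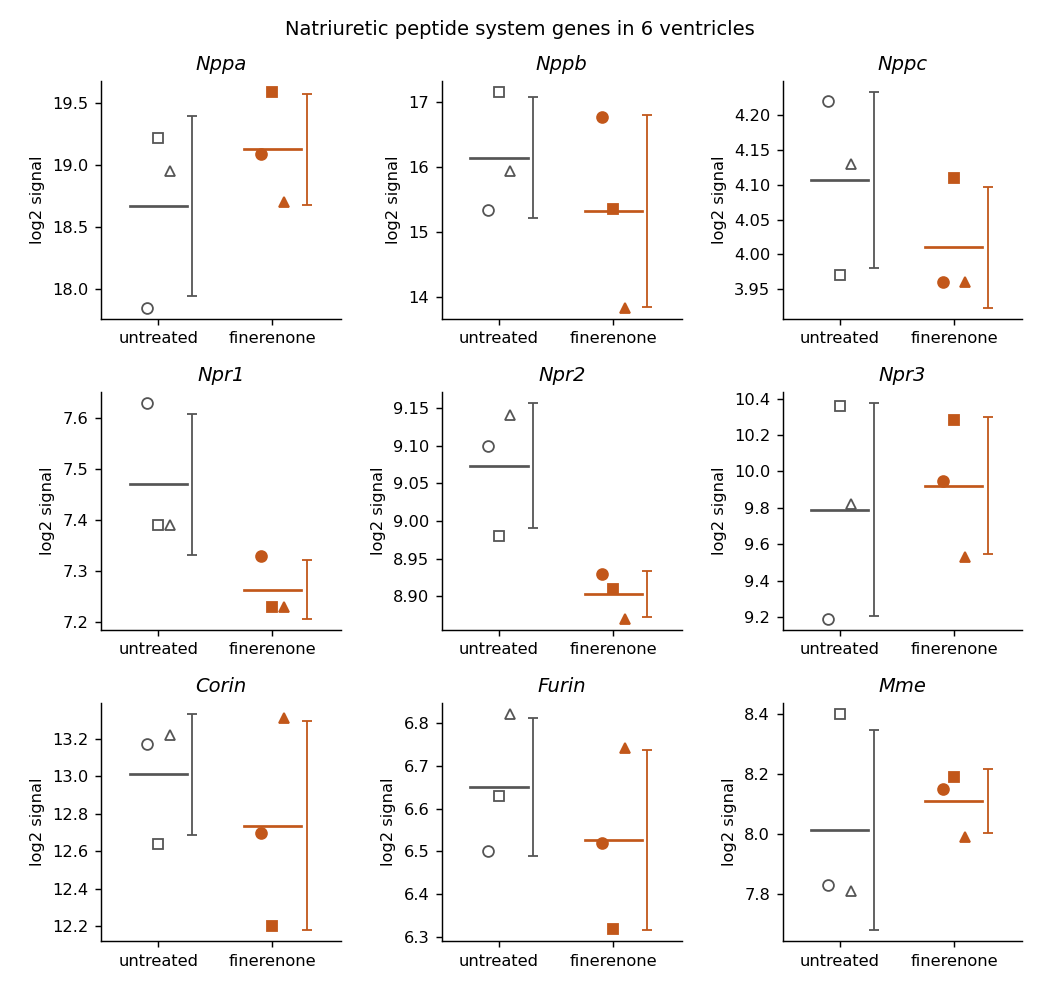
Log2 signal of the 9 genes (1 panel each, with its own vertical scale that does not start at 0) in untreated (open) and finerenone (filled) ventricles. Symbols mark replicates 1 (circle), 2 (square) and 3 (triangle), horizontal lines the group means and vertical bars 1 SD on either side. Npr1 and Npr2 are the panels in which all treated hearts lie below all untreated ones, by a narrow margin.

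Both guanylyl cyclase receptors measured lower in every treated heart than in any untreated heart. Npr1 encodes the receptor for ANP and BNP, and its signal was 7.33, 7.23 and 7.23 with finerenone against 7.63, 7.39 and 7.39 without. The means were 7.27 ± 0.06 and 7.47 ± 0.14 (SD, n = 3 each), a log2 difference of -0.20 ± 0.10 (SE), or 0.869-fold with a 95% interval from 0.740 to 1.02. Npr2, which encodes the receptor for CNP, measured 8.93, 8.91 and 8.87 with finerenone and 9.10, 8.98 and 9.14 without. Its means were 8.90 ± 0.03 and 9.07 ± 0.09, a difference of -0.17 ± 0.08 (SE), or 0.890-fold with an interval from 0.779 to 1.02. Of the negative controls, 11.0% to 15.3% were at or above Npr1 and 3.1% to 4.4% at or above Npr2.

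Neither receptor passed in limma, with an adjusted p = 0.668 for Npr1 (0.0765 before adjustment) and 0.670 for Npr2 (0.0777 before adjustment). In each the exact permutation p was 0.1, the lowest that 3 arrays against 3 can give. Groups did not overlap for 2 of the 9 members (22.2%), both lower with the drug. Over all genes 12.4% did not overlap, 4.18% being lower and 8.17% higher with finerenone, and among the genes with a mean of at least 6 the share was 15.9%, with 5.07% lower. The count rests on 2 genes, and nothing is read from it beyond these shares. Without untreated replicate 1 the difference in Npr1 was -0.12, while Npr2 was then at -0.15.

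Npr1 is made by endothelium as well as by muscle, and endothelial markers were on average lower in the treated hearts. All 10 measured markers of the endothelial list were lower with finerenone, with a median difference of -0.39. Their summed signal ran from 15.5 to 15.7 in treated and from 15.7 to 16.6 in untreated hearts, and none was at background. The differences ran from -0.10 ± 0.20 (SE) for Pecam1 to -0.94 ± 0.53 for Cldn5. Kdr, the VEGF receptor, was named after its values were seen. It measured 13.49, 13.08 and 13.02 with finerenone against 14.61, 13.62 and 13.93 without (difference -0.86 ± 0.27 SE, adjusted p = 0.597 in limma). Untreated replicate 1 was the highest heart for both Kdr and Npr1, and without it 8 of the 10 markers were lower, with a median of -0.26. In tissue, fewer cells of a type and less RNA per cell cannot be told apart, and the part of the endothelial markers in the Npr1 and Npr2 values was not tested.

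Npr3, the clearance receptor that removes the peptides without making cyclic GMP, had 9.95, 10.28 and 9.53 with finerenone and 9.19, 10.36 and 9.82 without. The groups overlapped fully, with both the lowest and the highest heart untreated. The difference was 0.13 ± 0.33 (SE, 95% interval -0.66 to 0.91), and it turned to -0.17 without untreated replicate 1 and to -0.05 without finerenone replicate 2. Npr3 is enriched in endocardium. Of 6 endocardial and valve markers 3 were higher and 3 lower (median 0.03). Their summed signal ran from 11.0 to 12.0 in treated hearts and from 10.8 to 11.5 without. It is made up mostly of the 2 brightest, Cytl1 (9.59 to 11.37) and Cdh11 (9.05 to 9.73).

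Corin, the transmembrane serine protease of cardiac muscle that cuts pro-ANP, measured 12.70, 12.20 and 13.31 with finerenone and 13.17, 12.64 and 13.22 without. Finerenone replicate 2 was the lowest heart and finerenone replicate 3 the highest, so the treated group enclosed the untreated one. The difference was -0.27 ± 0.30 (SE, 95% interval -0.99 to 0.45), and it ran from -0.56 without finerenone replicate 3 to 0.00 without finerenone replicate 2. Furin, a proprotein convertase of the Golgi that cuts pro-BNP and pro-CNP, had 6.52, 6.32 and 6.74 with finerenone and 6.50, 6.63 and 6.82 without, a difference of -0.12 ± 0.14 (SE). Its signal was modest, with 20.1% to 26.1% of the negative controls at or above it.

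Mme encodes neprilysin, the membrane protease that breaks down natriuretic peptides and is the target of sacubitril. It measured 8.15, 8.19 and 7.99 with finerenone and 7.83, 8.40 and 7.81 without. The treated hearts lay together within the untreated range, where untreated replicate 2 stood above the other two. The difference was 0.10 ± 0.17 (SE, 95% interval -0.32 to 0.52), and it was 0.29 without untreated replicate 2, with an unadjusted p = 0.0326 and an adjusted p = 0.507 in limma. It was 0.00 both without untreated replicate 1 and without untreated replicate 3.

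**Figure D2:**
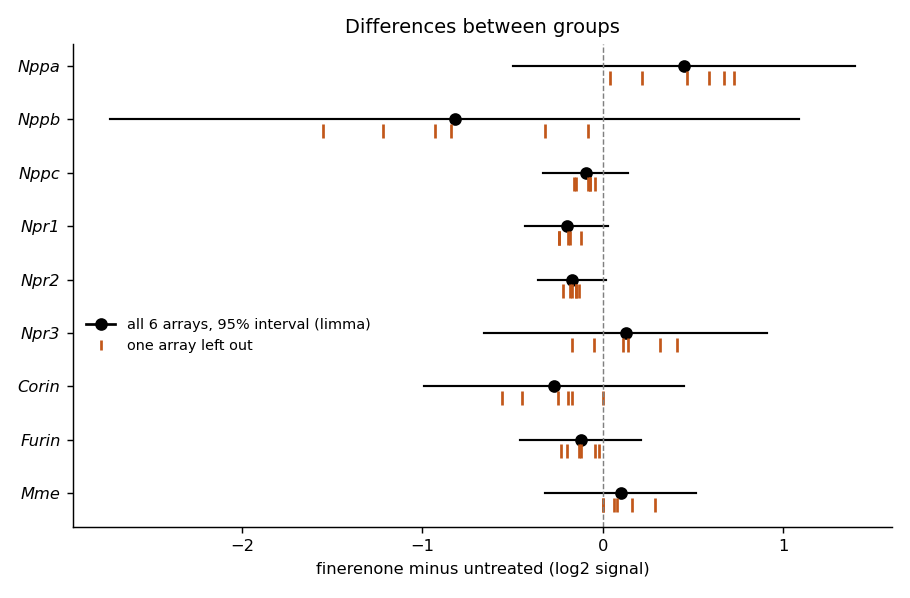
Difference in log2 signal, finerenone minus untreated, for the 9 genes. Black points are the estimates over all 6 arrays with 95% intervals from limma, and orange ticks the estimates with each array left out in turn. All 9 intervals include 0, and that of Nppb is the widest (-2.73 to 1.09).

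Across hearts, irrespective of group, some members had like profiles, though no pair passed after adjustment. Npr3 followed Nppa in the individual hearts, with r = 0.93 over 6 arrays (exact permutation p = 0.00833; rho = 0.94, exact p = 0.0167). This pair was picked out after the values were seen, and over all 36 pairs of members the adjusted p was 0.30 for r and 0.412 for rho. Leaving out finerenone replicate 2 and untreated replicate 1 gave r = 0.96 over the 4 arrays left, and the deviations from the group means gave r = 0.97. Corin ran the other way, with r = -0.74 against Nppa (exact permutation p = 0.0389, adjusted 0.460; rho = -0.83, exact p = 0.0583, adjusted 0.412) and r = -0.91 without the same 2 hearts. The heart with the most Nppa signal, finerenone replicate 2, thus had the least Corin signal, but untreated replicate 1 had the least Nppa signal without having the most Corin signal. Of the 36 pairs, 4 had r above 0.7 and 4 had r below -0.7.

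**Figure D3:**
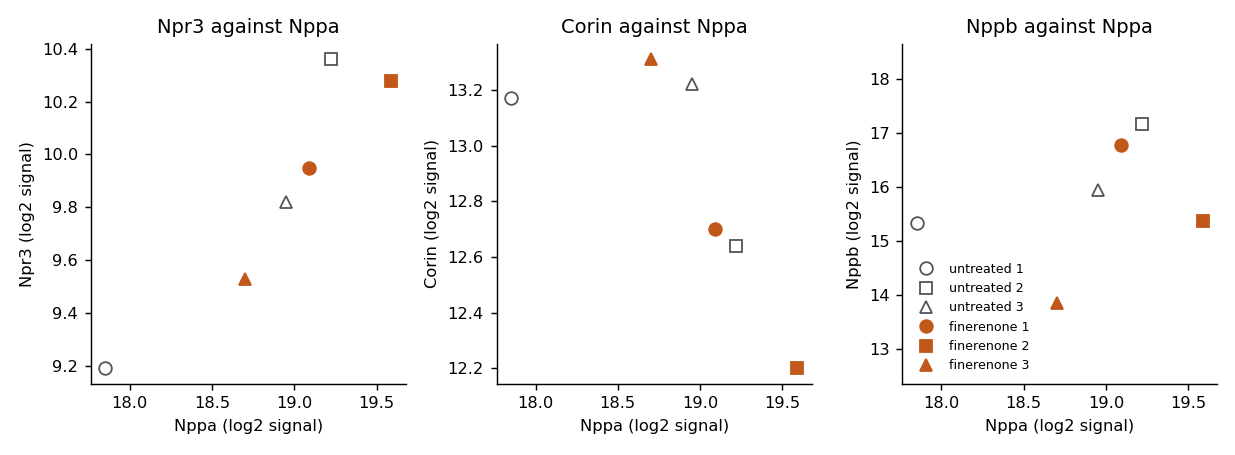
Log2 signals of Npr3, Corin and Nppb (vertical axes) against Nppa (horizontal axes), with 1 point for each of the 6 arrays, open for untreated and filled for finerenone, and the replicate shown by the symbol. Hearts with more Nppa signal had more Npr3 signal (r = 0.93) and mostly less Corin signal (r = -0.74), and r was 0.34 for Nppb; no pair passed after adjustment.

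Genes whose centred profile over the 6 arrays was nearest to that of Nppa were Mrpl43, Cmc2 and Lsm7, with root mean square distances of 0.0908, 0.162 and 0.165 log2 units among 8879 genes compared. Mrpl43, a protein of the mitochondrial ribosome, had 9.32, 9.58 and 8.92 with finerenone and 8.08, 9.34 and 9.17 without, so it shared the low value of Nppa in untreated replicate 1. Distances to Nppb were larger, but Nppb itself varied more, with a root mean square deviation of 1.08 against 0.54 for Nppa. The distance is not scaled to that spread, so closeness in shape cannot be compared between the peptides by it. The nearest to Nppb were Leo1 (0.574), a subunit of the Paf1 complex, Npas2 (0.582), a clock transcription factor, and Nrg1 (0.602), the growth factor neuregulin. Npas2 measured 7.52, 6.27 and 6.08 with finerenone and 7.02, 7.73 and 6.91 without, and it shared with Nppb its highest heart (untreated replicate 2) and its lowest (finerenone replicate 3).

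Transcription factors known to activate or repress Nppa and Nppb were mostly lower with finerenone. Of 21 measured, 18 were lower and 3 higher, with a median difference of -0.16, beside a median of 0.0283 over all genes, of which 41.8% were lower. The list had 0 members past the adjusted threshold, 2 with an unadjusted p below 0.05 and 4 whose groups did not overlap, all lower. Over all genes these 2 shares were 7.81% and 12.4% in either direction, and 2.12% and 4.18% for lower genes alone. Among genes with a mean of at least 6, 15.9% did not overlap in either direction. After quantile normalization 20 of the 21 were lower (median -0.23), but lower genes then numbered 15650 of all 30142. Without untreated replicate 1 there were 16 of the 21 (median -0.14), beside 12619 of all 30142 genes. Hand1 (-0.02 ± 0.20 SE) and Nfatc4 (0.11 ± 0.10) of this list had mean signals below the negative control median, and were named after their values were seen. Genes of a list share the same arrays and are not independent.

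Tbx20, a T-box factor needed in adult cardiac muscle, had 12.12, 12.31 and 12.23 with finerenone and 12.63, 12.68 and 12.64 without. The untreated hearts were nearly equal and all above the treated ones, by a difference of -0.43 ± 0.08 (SE, unadjusted p = 0.00144, adjusted p = 0.597 in limma). Srf, the factor that binds CArG boxes, had 9.57, 9.24 and 9.38 against 9.70, 9.88 and 9.80, a difference of -0.40 ± 0.11 (adjusted p = 0.597). Gata6 (-0.24 ± 0.11) and Tbx2 (-0.11 ± 0.08), named after their values were seen, were the other two whose groups did not overlap. Gata4, the zinc finger factor that drives Nppa and Nppb, differed by -0.16 ± 0.13, with 7.21, 7.08 and 7.04 against 7.33, 7.46 and 7.03.

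Downstream of the receptors, the list of cyclic GMP makers and effectors had 5 genes higher and 7 lower of 12 measured, with a median of -0.04. Of the higher genes, Prkg2 (0.07 ± 0.07 SE) and Pde9a (0.02 ± 0.13) had mean signals below the negative control median, so their signs carry little. These 2 were named after their values were seen. In this list 0 passed the adjusted threshold, 3 had an unadjusted p below 0.05 and 4 had groups that did not overlap, all of them lower with finerenone. By these rules 7.81% and 12.4% of all genes were counted in either direction, and 2.12% and 4.18% were counted as lower. Among genes with a mean of at least 6, 15.9% had groups that did not overlap. Pde3a, a phosphodiesterase that cyclic GMP inhibits, measured 10.54, 10.52 and 10.73 with finerenone and 11.29, 10.90 and 11.09 without, a difference of -0.50 ± 0.12 (SE, adjusted p = 0.597 in limma). Pde2a, a phosphodiesterase that cyclic GMP stimulates, measured 10.10, 9.48 and 9.73 against 10.50, 10.20 and 10.47, a difference of -0.62 ± 0.17 (adjusted p = 0.597). Rgs2, which the cyclic GMP kinase activates to dampen signals of contractile receptors (-0.67 ± 0.19), and Mrvi1, also called Irag1, a substrate of that kinase (-0.17 ± 0.08), were named after their values were seen.

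Prkg1 and Pde5a, of the same list, did not share this direction beyond the spread. Prkg1, the cyclic GMP-dependent kinase, had 7.45, 7.82 and 7.88 with finerenone and 7.50, 7.28 and 7.56 without (difference 0.27 ± 0.14 SE). Pde5a, the target of sildenafil, had 6.66, 6.85 and 6.63 against 6.76, 6.75 and 6.85 (-0.07 ± 0.09). For both genes the groups overlapped.

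Among 9 partners in processing and clearance, 4 were higher and 5 lower (median -0.01), 0 passed the adjusted threshold and 1 had an unadjusted p below 0.05, beside 7.81% of all genes. That gene was Ece1, the endothelin-converting enzyme, which also degrades peptides, with 10.51, 10.46 and 10.42 with finerenone against 10.72, 10.71 and 10.56 without (-0.20 ± 0.08 SE, adjusted p = 0.636 in limma). Groups did not overlap for 1 gene that was lower, Ece1, and for 1 that was higher, Mep1a, beside 12.4% of all genes. Mep1a, a subunit of the protease meprin, was at background (3.37 to 3.58), so groups can separate where a signal is not distinguishable from it. Pcsk6, the convertase that activates corin, differed by -0.01 ± 0.16, and Ide, the insulin-degrading enzyme that also cuts natriuretic peptides, by 0.13 ± 0.11. The last 2 genes were named after their values were seen.

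Genes of hypertrophy and stretch, which often accompany Nppa and Nppb, numbered 5 higher and 6 lower of 11 (median -0.02), and 0 passed the adjusted threshold. Myh7, the beta myosin heavy chain, had 12.38, 12.99 and 11.80 with finerenone and 12.67, 14.02 and 12.28 without (-0.60 ± 0.50 SE). Its highest heart was untreated replicate 2 and its lowest finerenone replicate 3, as for Nppb. The correlation of Nppb and Myh7 was r = 0.68 (exact permutation p = 0.111, adjusted 0.304 over 3 pairs; rho = 0.54, exact p = 0.297, adjusted 0.297), and it turned to r = -0.71 without those 2 hearts, so it rests on them.

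Acta1, skeletal alpha-actin, had 14.12, 16.04 and 13.92 with finerenone and 12.26, 14.28 and 14.18 without (1.12 ± 0.75 SE). It shared with Nppa its highest heart, finerenone replicate 2, and its lowest, untreated replicate 1. Xirp1, a protein of the intercalated disc, was the 1 gene of 11 in this list with an unadjusted p below 0.05, beside 7.81% of all genes. Its difference was -0.43 ± 0.16 (SE, adjusted p = 0.611 in limma), and its groups overlapped. Ankrd1, a stretch-responsive repressor, measured 19.49 to 19.93 and so lay at the top of the scale in several hearts (0.21 ± 0.14).

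**Figure D4:**
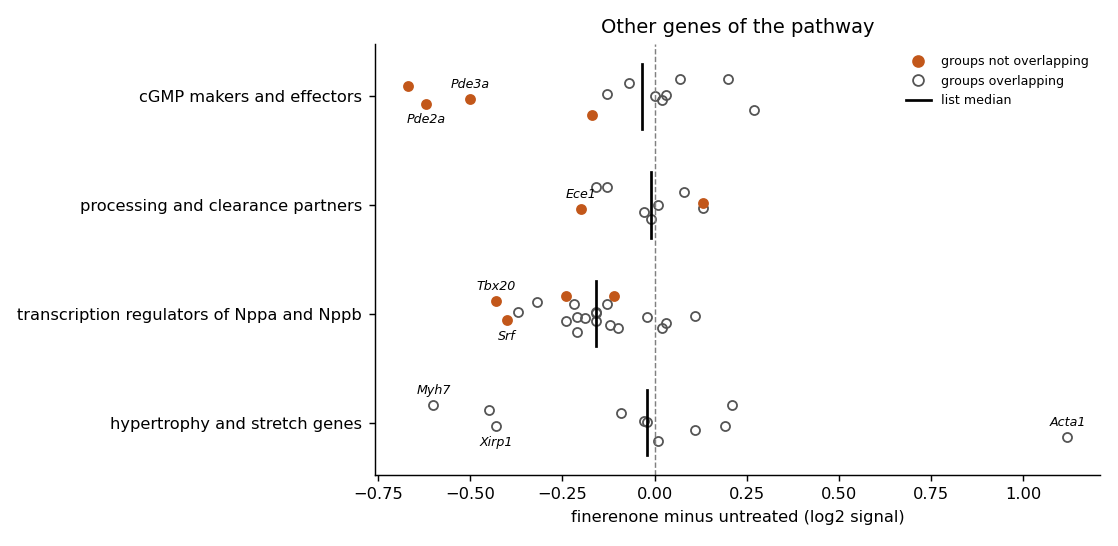
Difference in log2 signal, finerenone minus untreated (horizontal axis), of each measured gene in 4 pathway lists (rows; vertical scatter within a row has no meaning). Filled points are genes whose groups did not overlap, open points the others, and black bars the list medians. The transcription regulators have 18 of 21 genes left of 0, while the other 3 lists lie on both sides.

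Markers of other cells were described in the same way, and 0 genes of any marker list passed the adjusted threshold. The macrophage and monocyte list had 9 of 9 genes higher (median 0.25), 8 of 9 mural genes were lower (-0.18), and 5 of 7 fibroblast genes were higher (0.15). Of the ventricular muscle genes 6 of 8 were higher (0.01), of the epicardial genes 2 of 5 (-0.04), of the skeletal muscle genes 1 of 6 (-0.15) and of the lymphocyte genes 1 of 4 (-0.14, all at background). The ventricular count became 1 of 8 after quantile normalization, after cyclic loess and without untreated replicate 1, and 3 of 8 after median centring. Tnnt2 (19.92 to 19.93), Myl3 (16.81 to 16.85) and Mb (10.52 to 10.53) of that list barely varied, so their signs carry little. The fibroblast count became 3 of 7 after quantile normalization, the macrophage count 8 of 9 and the epicardial count 1 of 5 after each of the 3 scalings, and mural genes were lower in 5 of 9 without untreated replicate 1. Their part in the differences of the natriuretic genes was not tested.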

How the data were processed

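Ventricular RNA of 6 mice was hybridised to Affymetrix arrays. The deposited values are log2 signals per probe set. Per the submitters' processing notes, the authors used RMA, Transcriptome Analysis Console and Affymetrix Expression Console, with versions and annotation build not given in the sources used here. There were 65956 transcript clusters and 6732 control probe sets, with values from 1.94 to 19.93. Clusters were named through the platform annotation: 30604 had 1 symbol, 2146 several and 33206 none. Symbols were updated by Entrez identifier to RefSeq genes of GRCm38.p6, and the cluster with the highest mean over the 6 arrays stood for each of 30142 genes.

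Groups and replicate numbers came from the sample titles, which call the mice biological replicates. Differences were tested with limma 3.58.1 (R 4.3.3; linear model without covariate, moderated by eBayes, two-sided), with Benjamini-Hochberg adjustment over all genes and a threshold of 0.05. The script was tested on simulated data. Correlations over arrays and single values used two-sided exact permutation tests (scipy 1.17.1). Precision is limited by having 3 arrays in each group. No scan date or slide was given, so no batch was examined. Deviations of same-numbered samples correlated at -0.15, 0.06 and 0.06, so the numbers were not taken to pair the mice.

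The members, gene lists and tests were chosen with earlier results of these data known. All 9 members were named. From each pathway list the 2 genes with the smallest unadjusted p were named, with Myh7, Ankrd1, Pde5a, Prkg1 and Gata4 in addition, and for Nppa and Nppb the 3 genes with the nearest centred profile and a mean of at least 6 (predicted genes left out). Some listed genes, among them Gucy1a1, Egfl7 and Pdgfra, were not analysed here. Alternatives were 3 normalizations, 2 filters on dim genes, a gene's mean over its clusters, weights for arrays, a robust prior with trend, a block for the replicate number, and each array left out. The comparison of all pairs of members and of Nppa minus Nppb was added after seeing the data. Promoter sequences came from RefSeq, which matched all 9 members.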

Additional observations from a re-analysis of the deposited data

How the results depend on the processing

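In limma 0 members and 0 genes passed the adjusted threshold under every alternative run, including quantile normalization, median centring, cyclic loess, both filters on dim genes, array weights and all transcript clusters. With the replicate number as a block 0 members passed, and the block changed no other call. Members with an unadjusted p below 0.05 numbered 1 after quantile normalization (Npr2) and from 0 to 2 with single arrays left out, the 2 being Npr2 and Mme without untreated replicate 2. Members whose groups did not overlap numbered from 2 to 4 with single arrays left out, beside 20.8% to 25.7% of all genes, with 4 of 9 without untreated replicate 2, where it was 25% of all genes. Leaving out single arrays put the Npr3 difference between -0.17 and 0.41. Its sign turned when untreated replicate 1 (-0.17) or finerenone replicate 2 (-0.05) was left out, and the cause was not tested. Under the filters Nppc gave no value at a mean of at least 6 or at the median of all genes. The median over all genes was -0.00632 after quantile normalization. Signal near background limits Nppc, and the top of the scale limits Nppa, Ankrd1 and Tnnt2.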
